A study of Mus musculus with 8 samples.

Results

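The exon junction complex genes described here were 9 of the 37310 genes listed in all 8 libraries. They were chosen by name, with Ensembl gene IDs matched to mouse symbols. The rule used no measured value, but it was set with earlier results of these data known. The core of the complex was represented by Eif4a3, Magoh, Magohb, Rbm8a and Casc3. Its partners were represented by Upf3b, Acin1, Rnps1 and Sap18. All 9 passed the filter on low counts.

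The exon junction complex is laid down by the spliceosome just upstream of exon junctions and stays on the mRNA until translation. Its anchor is the RNA helicase eIF4A3, clamped on RNA by the heterodimer of MAGOH and RBM8A (Y14), with CASC3 as a further core protein. Through its partners the complex takes part in splicing, in mRNA export and in nonsense-mediated decay, the pathway that degrades mRNAs whose stop codon lies far upstream of an exon junction.

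The libraries hold poly-A RNA from feeder-free mouse embryonic stem cells, taken for a study of eIF4A3 and stem cell identity, and fall into 4 groups of 2. In the J1 line, of strain 129S4/SvJae, the control carried a control knockdown beside a control expression construct (CtrlKD-CtrlOE). A further J1 group was labelled eIF4A3 knockdown beside the control construct (eif4a3KD-CtrlOE), and the last J1 group was labelled eIF4A3 knockdown beside expression of Ccnb1, which encodes cyclin B1. In the CCE line, of strain 129/Sv, the only group analysed here was labelled eIF4A3 knockdown, so no CCE control was available for a comparison and its levels are given as a description. The labels give the same handling for all groups: transfection, then lentiviral infection, 2.5 days in puromycin at 1 µg/mL, and harvest at day 4.5. The knockdown sequence is not given in the sources used here, and neither is whether the libraries of a group came from separate cultures, so p-values measure only the spread between these libraries.

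Total gene counts were 5740965 and 8340023 in the control libraries, 4398141 and 3596615 in those labelled knockdown, 5871830 and 6620504 in those labelled knockdown with Ccnb1, and 23966825 and 25574740 in CCE. The libraries labelled knockdown stood apart: 40.8% and 45.2% of their reads were listed as unaligned, against 15.7% to 15.9% in the other J1 libraries, and the spread between them was 22.0 times Poisson noise, against 3.41 times in the control and 1.88 times with Ccnb1. The CCE counts were made differently, with no reads listed as unaligned or of low quality. All 10 embryonic stem cell markers were detected in every library. Their summed level was 8906 and 8899 CPM, counts scaled by library size, in the control, 4508 and 4139 CPM in the libraries labelled knockdown, 8823 and 8923 CPM with Ccnb1, and 4309 and 4795 CPM in CCE. The summed level of 6 endoderm markers was 6.97 and 9.11, 25.0 and 26.1, 84.5 and 76.6, and 74.6 and 102 CPM, listed likewise. That of 4 trophectoderm markers was 26.0 and 28.9, 25.2 and 50.3, 36.3 and 36.7, and 129 and 159 CPM. For 4 mesoderm markers it was 19.2 and 21.1, 6.37 and 24.5, 22.0 and 25.4, and 22.8 and 27.4 CPM. Of 4 neuroectoderm markers 3 were listed, at 28.4 and 28.4, 13.0 and 27.0, 38.3 and 38.1, and 50.7 and 48.0 CPM. Of 9 fibroblast or feeder markers, 4 or 5 were detected in each J1 library and 9 in each CCE library, with a summed level of 53.1 and 42.4, 43.0 and 50.0, 50.2 and 47.0, and 52.7 and 51.3 CPM. Col3a1, Postn and Dcn were at 0 in all J1 libraries. The part of the unaligned share and of the markers in the results on knockdown libraries was not tested, and in bulk RNA fewer cells of a type and less RNA per cell cannot be told apart.

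What a count of these genes can mean depends on near-identical copies elsewhere in the genome, most of them with 1 exon. The windows of coding sequence that follow, from GENCODE M21 (build GRCm38), are centred on an exon junction of the member, which lies after base 45 of 90. They are shown because they give the number of bases by which a read across the junction of the spliced gene differs from its copy. Capitals mark the bases of a copy that differ from the member. The first set is the junction of exons 6 and 7 of Eif4a3, on chromosome 11, with the aligned stretches of Gm8994, Gm5580 and Gm5576, on chromosome 6, which differed from it at 3, 2 and 2 of 90 bases.

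Eif4a3: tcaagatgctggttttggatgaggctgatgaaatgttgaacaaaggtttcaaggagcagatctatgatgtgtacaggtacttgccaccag

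Gm8994: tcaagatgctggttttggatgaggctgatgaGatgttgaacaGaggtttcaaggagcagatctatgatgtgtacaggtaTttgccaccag

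Gm5580: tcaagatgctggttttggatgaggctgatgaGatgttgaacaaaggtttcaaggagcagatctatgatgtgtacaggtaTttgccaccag

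Gm5576: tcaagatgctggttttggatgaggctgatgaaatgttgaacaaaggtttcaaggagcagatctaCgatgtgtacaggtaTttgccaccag

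None of these 3 copies of Eif4a3 was listed in the count files. Over their whole matches they were 95.59%, 96.4% and 96.76% identical to the Eif4a3 transcript, over 1450, 1361 and 1236 bases. Rnps1, on chromosome 17, had an unlisted copy of the same kind, Gm9825, identical at 99.41% of 843 bases. The unlisted Gm44958, matched to Magohb, is no copy elsewhere: it overlaps Magohb on the same strand. For Rbm8a, on chromosome 3, and Sap18, on chromosome 14, the copies were listed and counted as genes of their own. Rbm8a2, on chromosome 1, differed from the junction of exons 3 and 4 of Rbm8a at 3 of 90 bases, and Sap18b, on chromosome 8, was identical to the junction of exons 2 and 3 of Sap18.

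Rbm8a: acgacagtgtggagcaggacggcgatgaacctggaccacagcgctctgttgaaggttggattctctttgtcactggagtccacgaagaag

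Rbm8a2: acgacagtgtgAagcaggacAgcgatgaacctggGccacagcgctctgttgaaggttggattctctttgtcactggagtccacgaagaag

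Sap18: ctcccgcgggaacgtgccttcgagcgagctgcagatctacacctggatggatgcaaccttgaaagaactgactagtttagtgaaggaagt

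Sap18b: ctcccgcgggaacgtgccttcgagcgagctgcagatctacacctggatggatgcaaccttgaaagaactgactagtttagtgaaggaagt

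The paralogues Magoh, on chromosome 4, and Magohb, on chromosome 6, both have 5 exons and encode closely related proteins. Their coding sequences were 80.18% identical, and the junction of exons 3 and 4 differed at 17 of 90 bases, so reads separate these genes well.

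Magoh: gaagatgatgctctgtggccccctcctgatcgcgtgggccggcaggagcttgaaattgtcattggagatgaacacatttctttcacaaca

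Magohb: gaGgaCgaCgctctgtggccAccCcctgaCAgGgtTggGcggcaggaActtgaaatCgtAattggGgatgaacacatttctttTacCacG

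Rbm8a2 and Sap18b took most of the counts of their families in J1 and almost none in CCE. The share of Rbm8a2 in the counts of Rbm8a and Rbm8a2 was 74.2% and 74.7% in the control, 71.4% and 83.9% in the libraries labelled knockdown, 75.9% and 73.6% with Ccnb1, and 0.0869% and 0.0578% in CCE. The share of Sap18b in the counts of Sap18 and Sap18b was 81.3% and 84.8%, 81.1% and 74.0%, 84.1% and 87.3%, and 1.06% and 1.27%, listed likewise. All exact 95% binomial intervals in J1 lay between 68.8% and 89.0%, and in CCE between 0.0119% and 1.84%. Line, and the way the counts were made, cannot be told apart for this difference. Levels of Rbm8a and Sap18 are therefore uncertain and are given alone and summed with their copies.

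**Figure D1:**
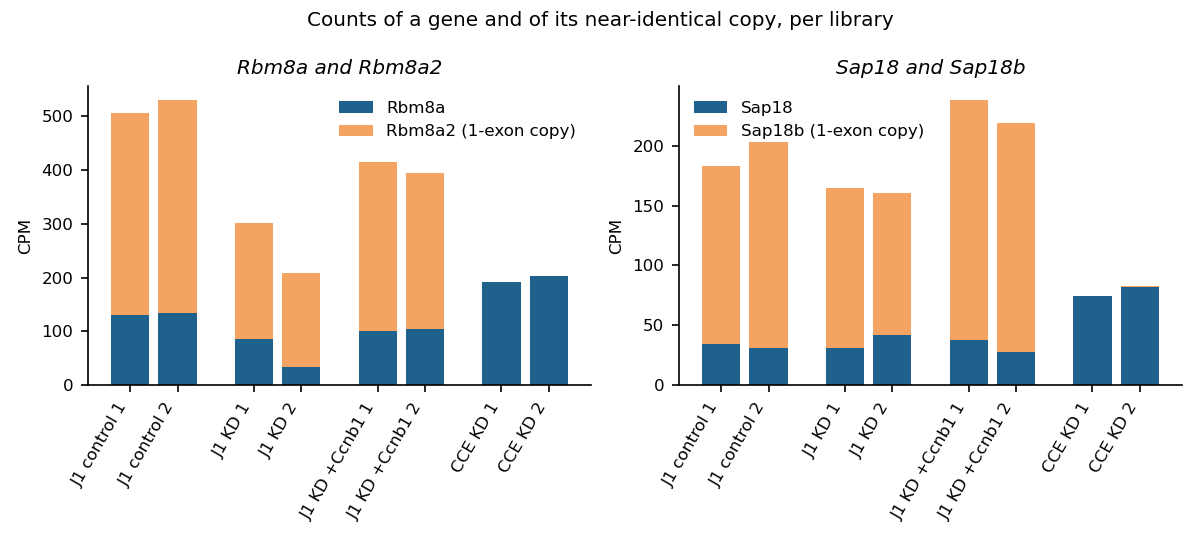
CPM of Rbm8a with Rbm8a2 (left) and of Sap18 with Sap18b (right), stacked, 1 bar per library. The copy made up at least 71.4% of each J1 bar on the left and at least 74.0% of each J1 bar on the right, and at most 1.27% of any CCE bar.

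By CPM without TMM scaling, Eif4a3, the targeted helicase, was not lower than control in both libraries labelled knockdown. Its level was 73.5 and 83.7 CPM in the control, 75.7 and 37.5 CPM in the libraries labelled knockdown, 47.3 and 53.5 CPM with Ccnb1, and 48.8 and 53.9 CPM in CCE. The first library labelled knockdown lay within the range of the control by CPM and the second was the lowest of all 8. The 2 groups thus overlapped, while both libraries with Ccnb1 lay below both controls. The overlap depends on the scaling. TMM factors, used in the tests below, were 0.950 and 0.944 in the control and 1.06 and 1.05 in the libraries labelled knockdown. Divided by them, both libraries labelled knockdown lay below both controls, the first only slightly. In order of the mean, the control was highest at 78.6 ± 7.20 CPM, followed by the group labelled knockdown at 56.6 ± 27.0, CCE at 51.3 ± 3.61 and the group with Ccnb1 at 50.4 ± 4.33 (SD, n = 2 each). The last 3 did not differ beyond their spread. In edgeR's quasi-likelihood test over the 6 J1 libraries, with Benjamini-Hochberg adjustment over 14462 genes, Eif4a3 did not pass 0.05 in any comparison. Its log2 fold change was -0.63 ± 0.33 (SE) against control in the group labelled knockdown (adjusted p = 0.211), -0.72 ± 0.32 with Ccnb1 against control (adjusted p = 0.190), and -0.09 ± 0.33 with Ccnb1 against the group labelled knockdown (adjusted p = 0.859).

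A single library set the first of these values. Without the first library labelled knockdown, the log2 fold change of Eif4a3 against control was -1.25 (edgeR adjusted p = 1.26e-10), and without the second it was -0.25 (adjusted p = 0.122). Against the group labelled knockdown, the libraries with Ccnb1 were then 0.55 higher (adjusted p = 0.00477) or at -0.44 (adjusted p = 0.00624). In these fits the lone library is assumed to vary like the other groups, and 62.8% to 71.3% of all genes passed in the comparisons with it. With only the control and the Ccnb1 libraries in the fit, Eif4a3 was lower with Ccnb1 by a log2 fold change of -0.77 (adjusted p = 1.17e-06), where 62.1% of all genes passed. With an offset for GC content and length, no value of Eif4a3 was called: the 3 log2 fold changes were -0.62, -0.35 and 0.26 (adjusted p = 0.220, 0.563 and 0.588) with the offset centred, and -0.30, -0.51 and -0.20 (adjusted p = 0.574, 0.414 and 0.695) not centred. Divided by the spread between libraries relative to Poisson noise, the summed counts of Eif4a3 were 21.3 in the group labelled knockdown, 329 in the control and 336 with Ccnb1. That spread also holds any real difference between the 2 libraries of a group. How reads that match the unlisted copies were placed is not given in the sources used here.

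Magoh, the partner of Y14 in the core, was lower in both libraries labelled knockdown than in the control, by very unequal amounts. Its level was 82.7 and 74.7 CPM in the control, 19.3 and 64.8 CPM in the libraries labelled knockdown, 48.7 and 57.2 CPM with Ccnb1, and 78.7 and 84.4 CPM in CCE. The first library labelled knockdown, in which Eif4a3 was at the control level by CPM, held the lowest Magoh of all 8. The order of means was CCE at 81.6 ± 4.05, control at 78.7 ± 5.68, Ccnb1 at 53.0 ± 6.04 and labelled knockdown at 42.1 ± 32.1 CPM (SD, n = 2 each), with no difference beyond the spread between the first 2 or between the last 2. The edgeR log2 fold changes were -1.06 ± 0.52 (adjusted p = 0.189), -0.64 ± 0.51 (adjusted p = 0.448) and 0.42 ± 0.52 (adjusted p = 0.578) in the 3 comparisons in the order given for Eif4a3. Without the first library labelled knockdown the value against control was -0.45, and without the second it was -2.21. Either fit leaves 1 library in that group, so it holds no measure of the spread there.

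Magohb, the paralogue that can take the place of Magoh, was a minor gene in every library. It had 10 and 2 counts in the control, 0 and 0 in the libraries labelled knockdown, 9 and 16 with Ccnb1, and 138 and 117 in CCE. These were 1.74 and 0.240 CPM in the control, 1.53 and 2.42 CPM with Ccnb1, and 5.76 and 4.57 CPM in CCE, the highest of the groups. A count of 0 allows up to 3 counts, which were 0.682 and 0.834 CPM in the libraries labelled knockdown. With counts divided by the spread, the floor of 3 counts over that group was 8.26 CPM, above the level of Magohb in the other J1 groups, so no fold is given. Magohb made up 2.06% and 0.320% of the counts of Magoh and Magohb in the control, 0 of 85 and 0 of 233 counts in the libraries labelled knockdown, which allow up to 3.53% and 1.29%, 3.05% and 4.05% with Ccnb1, and 6.82% and 5.14% in CCE. The exact 95% intervals of the CCE libraries began at 5.76% and 4.27%, above the ends of those of both controls, 3.76% and 1.15%. The intervals of the Ccnb1 libraries ended at 5.71% and 6.49%, and each overlapped that of a CCE library. Line, and the way the counts were made, cannot be told apart for the gap between CCE and the control. The edgeR adjusted p of Magohb was 0.111, 0.672 and 0.0603 in the 3 comparisons.

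Rbm8a, which encodes Y14, was lower in both libraries labelled knockdown, alone and with its copy. Alone it was at 130 and 134 CPM in the control, 86.4 and 33.6 CPM in the libraries labelled knockdown, 100.1 and 104 CPM with Ccnb1, and 192 and 203 CPM in CCE. The groups did not overlap in any pair, and the order of means was CCE, control, Ccnb1 and labelled knockdown. The edgeR log2 fold change of Rbm8a alone was -1.29 ± 0.39 against control in the group labelled knockdown (adjusted p = 0.0586), -0.45 ± 0.38 with Ccnb1 against control (adjusted p = 0.479) and 0.84 ± 0.39 between the latter 2 groups (adjusted p = 0.149).

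Summed with its copy, Rbm8a was at 506 and 529 CPM in the control, 302 and 209 CPM in the libraries labelled knockdown, 415 and 394 CPM with Ccnb1, and 192 and 203 CPM in CCE. The sum fell in the group labelled knockdown, to 0.493 times the mean CPM of the control, with a log2 fold change of -1.18 ± 0.16 (edgeR adjusted p = 0.00611), and it was higher with Ccnb1 than in the group labelled knockdown by 0.74 ± 0.16 (adjusted p = 0.0180). The fall was not called without the first or the second control library (adjusted p = 0.0669 and 0.0756). The rise kept its direction without the first or the second library labelled knockdown, at 1.08 and 0.57, and was not called without any 1 of the other 4 J1 libraries. Rbm8a2 by itself was at 376 and 395, 215 and 175, and 315 and 290 CPM in the 3 J1 groups, with log2 fold changes of -1.14 (adjusted p = 0.00216), -0.42 (adjusted p = 0.0473) and 0.71 (adjusted p = 0.00603). The second was not called without any 1 control or Ccnb1 library (adjusted p = 0.233 to 0.362). The last was 0.26 (adjusted p = 0.139) with an offset for GC content and length, and -0.19 with that offset not centred, and it was not called without the first Ccnb1 library (adjusted p = 0.0542).

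Casc3, a core protein found in only part of the complexes, was the core gene that was not lower in any group. Its level was 123 and 121 CPM in the control, 185 and 132 CPM in the libraries labelled knockdown, 178 and 177 CPM with Ccnb1, and 128 and 132 CPM in CCE. Both libraries with Ccnb1 lay above both controls, while the second library labelled knockdown lay near the control and the first near the Ccnb1 libraries. The order of means was Ccnb1, labelled knockdown, CCE and control, and the group labelled knockdown, at 159 ± 37.1 CPM (SD, n = 2), did not differ from its neighbours beyond its spread. Casc3 did not pass in any comparison, with edgeR log2 fold changes of 0.22 ± 0.16 (adjusted p = 0.350), 0.46 ± 0.16 (adjusted p = 0.0966) and 0.24 ± 0.16 (adjusted p = 0.282). It overlaps Msl1 and the antisense gene Gm12359, and strand handling is not given in the sources used here. Msl1, on the same strand, had 229 to 485 counts per J1 library, where Casc3 had 476 to 1173, and 877 and 1236 counts in CCE. Gm12359 had at most 8 counts in a J1 library, against 216 and 290 in CCE.

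**Figure D2:**
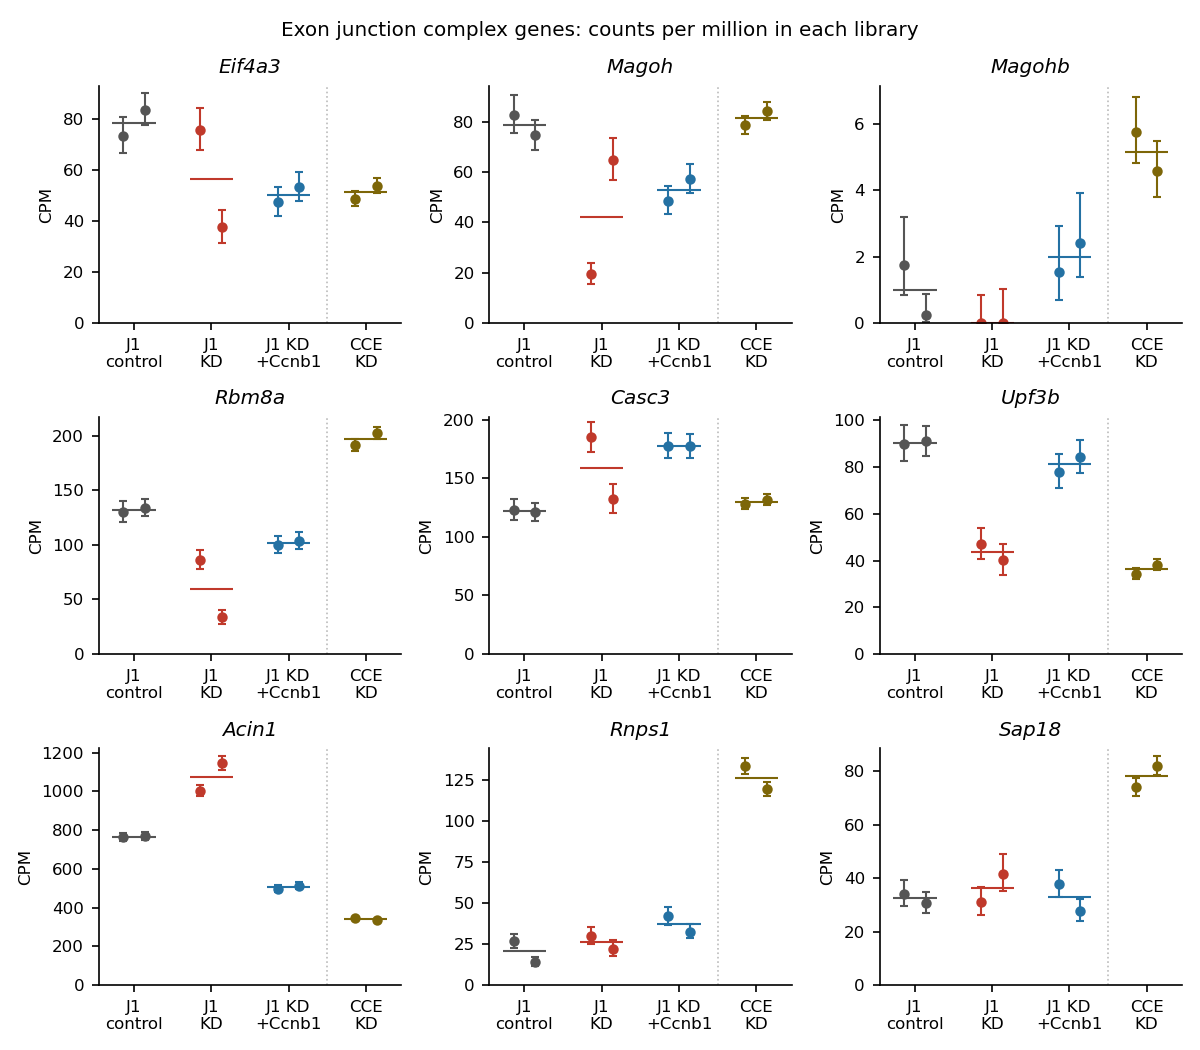
Level of each gene in CPM (linear axis from 0) in each of the 8 libraries, 1 point per library with its exact 95% Poisson interval for counting error, and a line at the group mean. The dotted line sets the CCE group apart, whose counts were made differently. The points of the group labelled knockdown are far apart for Eif4a3, Magoh and Rbm8a and close together for Upf3b.

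Upf3b, which links the complex to nonsense-mediated decay, fell in the group labelled knockdown. Its level was 90.1 and 91.0 CPM in the control, 47.1 and 40.0 CPM in the libraries labelled knockdown, 78.0 and 84.3 CPM with Ccnb1, and 34.4 and 38.3 CPM in CCE. Both libraries labelled knockdown lay far below the other J1 libraries and just above CCE, with no overlap between any groups. The log2 fold change was -1.21 ± 0.15 against control (edgeR adjusted p = 0.00385). With Ccnb1 it was 0.98 ± 0.15 higher than in the group labelled knockdown (adjusted p = 0.00510) and stood at -0.23 ± 0.14 against control (adjusted p = 0.313). The fall kept its direction without either library labelled knockdown, at -1.35 and -1.13, and it was not called without the first or the second control library. The difference with Ccnb1 was not called without the second Ccnb1 library (adjusted p = 0.0626) or with an offset for GC content and length that was not centred (0.25, adjusted p = 0.287).

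Upf3a, the paralogue of Upf3b, moved the other way in both comparisons with the group labelled knockdown. With Ccnb1 against control the log2 fold change was negative for both genes. Its level was 105 and 109 CPM in the control, 174 and 199 CPM in the libraries labelled knockdown, 57.7 and 65.4 CPM with Ccnb1, and 93.3 and 86.4 CPM in CCE. It rose by a log2 fold change of 0.64 ± 0.13 against control in the group labelled knockdown (edgeR adjusted p = 0.0171), fell with Ccnb1 against control by 0.87 ± 0.13 (adjusted p = 0.00884), and was at -1.52 ± 0.13 with Ccnb1 against the group labelled knockdown (adjusted p = 0.000871). The first 2 calls were not made without any 1 of the control or Ccnb1 libraries. Upf3a thus made up 53.8% and 54.6% of the counts of both genes in the control, 78.7% and 83.2% in the libraries labelled knockdown, 42.5% and 43.7% with Ccnb1, and 73.1% and 69.3% in CCE. No exact 95% binomial interval of 1 J1 group reached that of another, and with 2 libraries against 2 the smallest two-sided exact permutation p is 0.333, so these shares carry no test.

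**Figure D3:**
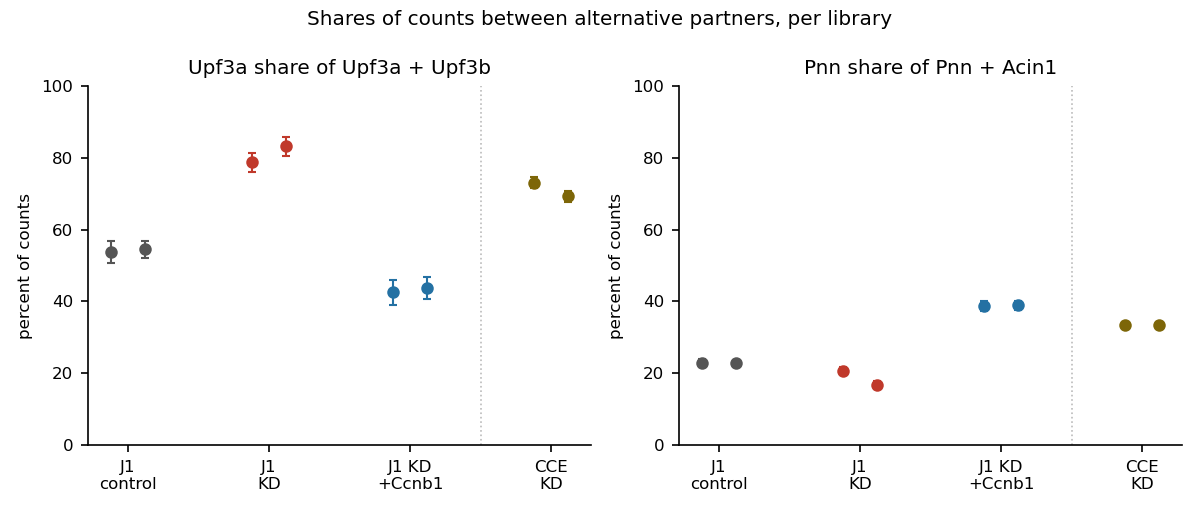
Share of Upf3a in the counts of Upf3a and Upf3b (left) and of Pnn in the counts of Pnn and Acin1 (right), in percent of counts, 1 point per library with its exact 95% binomial interval. Upf3a ranges from 42.5% with Ccnb1 to 83.2% in a library labelled knockdown, and Pnn from 16.7% to 38.9%.

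Acin1 encodes acinus, the large subunit of the ASAP complex, which also holds RNPS1 and SAP18 and acts in splicing. It was the most abundant member by counts, was higher than control in the group labelled knockdown and was lower with Ccnb1. Its level was 764 and 769 CPM in the control, 1004 and 1146 CPM in the libraries labelled knockdown, 498 and 512 CPM with Ccnb1, and 344 and 333 CPM in CCE. The groups did not overlap, and in order of the mean they ran from labelled knockdown at 1075 ± 100.1 CPM to control at 767 ± 3.52, Ccnb1 at 505 ± 10.2 and CCE at 339 ± 7.70 (SD, n = 2 each). Acin1 rose against control in the group labelled knockdown by 0.33 ± 0.08 on the log2 scale (edgeR adjusted p = 0.0288). It fell with Ccnb1 by 0.68 ± 0.08 against control (adjusted p = 0.00435), and its log2 fold change with Ccnb1 against the group labelled knockdown was -1.01 ± 0.08 (adjusted p = 0.000682).

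The difference between the groups with Ccnb1 and labelled knockdown was called under every alternative run. The rise against control was not called with only the 2 groups in the fit (adjusted p = 0.0659), with a centred offset for GC content and length (0.15, adjusted p = 0.191), or without any 1 of the control and Ccnb1 libraries (adjusted p = 0.115 to 0.219). The fall with Ccnb1 against control was not called without any 1 of these 4 libraries (adjusted p = 0.0655 to 0.0799). Without either library labelled knockdown, all 3 differences of Acin1 kept their direction. Acin1 overlaps 3 genes on the opposite strand. The largest of them in J1, 1700123O20Rik, had 108 to 609 counts per J1 library, far fewer than Acin1.

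Pnn encodes pinin, which takes the place of acinus beside RNPS1 and SAP18 in the PSAP complex. Its share of the counts of Pnn and Acin1 was 22.7% and 22.8% in the control, 20.7% and 16.7% in the libraries labelled knockdown, 38.6% and 38.9% with Ccnb1, and 33.3% and 33.5% in CCE. Pnn rose with Ccnb1 against control by 0.43 ± 0.08 on the log2 scale (edgeR adjusted p = 0.0213) and against the group labelled knockdown by 0.46 ± 0.08 (adjusted p = 0.0100). With a centred offset for GC content and length neither rise was called (0.17, adjusted p = 0.295, and 0.09, adjusted p = 0.513), and with the offset not centred the second was -0.37 (adjusted p = 0.0488). Its rise against control was also lost without any 1 control or Ccnb1 library, and the rise against the group labelled knockdown without either Ccnb1 library (adjusted p = 0.0644 and 0.0853).

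Rnps1, the RNA-binding subunit that joins ASAP to the core, was low in J1. Its level was 26.8 and 14.1 CPM in the control, 30.0 and 22.2 CPM in the libraries labelled knockdown, 41.9 and 32.6 CPM with Ccnb1, and 134 and 120 CPM in CCE. Both Ccnb1 libraries lay above the other J1 libraries, the control and the group labelled knockdown overlapped, and CCE was at 6.18 times the J1 control by mean CPM. Its edgeR log2 fold changes were 0.20 ± 0.38 (adjusted p = 0.735), 0.79 ± 0.38 (adjusted p = 0.209) and 0.59 ± 0.38 (adjusted p = 0.274). The reads of Rnps1 match the unlisted copy Gm9825, so the gap between the lines cannot be told apart from the way the counts were made.

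Sap18, the small subunit shared with a histone deacetylase complex, was not called in any J1 comparison when counted alone without an offset. It was at 34.1 and 30.8 CPM in the control, 31.1 and 41.7 CPM in the libraries labelled knockdown, 37.8 and 27.8 CPM with Ccnb1, and 74.1 and 82.1 CPM in CCE. The 3 J1 groups overlapped, with edgeR log2 fold changes of 0.01 ± 0.27 (adjusted p = 0.984), -0.06 ± 0.26 (adjusted p = 0.913) and -0.07 ± 0.27 (adjusted p = 0.860). With an offset for GC content and length, Ccnb1 against the group labelled knockdown was at -0.60 (adjusted p = 0.137) centred and -1.04 (adjusted p = 0.0250) not centred, the second of which was called. Summed with Sap18b and Gm12219 it was at 183 and 203 CPM in the control, 165 and 163 CPM in the libraries labelled knockdown, 238 and 219 CPM with Ccnb1, and 74.9 and 83.2 CPM in CCE.

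The sum of Sap18 and its copies fell in the group labelled knockdown by 0.39 ± 0.09 on the log2 scale (edgeR adjusted p = 0.0306) and was higher with Ccnb1 than in that group by 0.56 ± 0.09 (adjusted p = 0.00764), with 0.17 ± 0.09 for Ccnb1 against control (adjusted p = 0.270). The fall was not called without any 1 control or Ccnb1 library (adjusted p = 0.0926 to 0.182), and the rise was not called without the first Ccnb1 library (adjusted p = 0.0766). Sap18b alone gave -0.50 (adjusted p = 0.0265), 0.21 (adjusted p = 0.256) and 0.71 (adjusted p = 0.00653) in the 3 comparisons. The first of these was not called with only its 2 groups in the fit (adjusted p = 0.0912) or without any 1 control or Ccnb1 library, and was 0.17 (adjusted p = 0.396) with an offset for GC content and length that was not centred. The last was not called without either Ccnb1 library (adjusted p = 0.0632 and 0.0528). Sap18 also overlaps Ska3 on the opposite strand, which had 143 to 664 counts per J1 library.

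**Figure D4:**
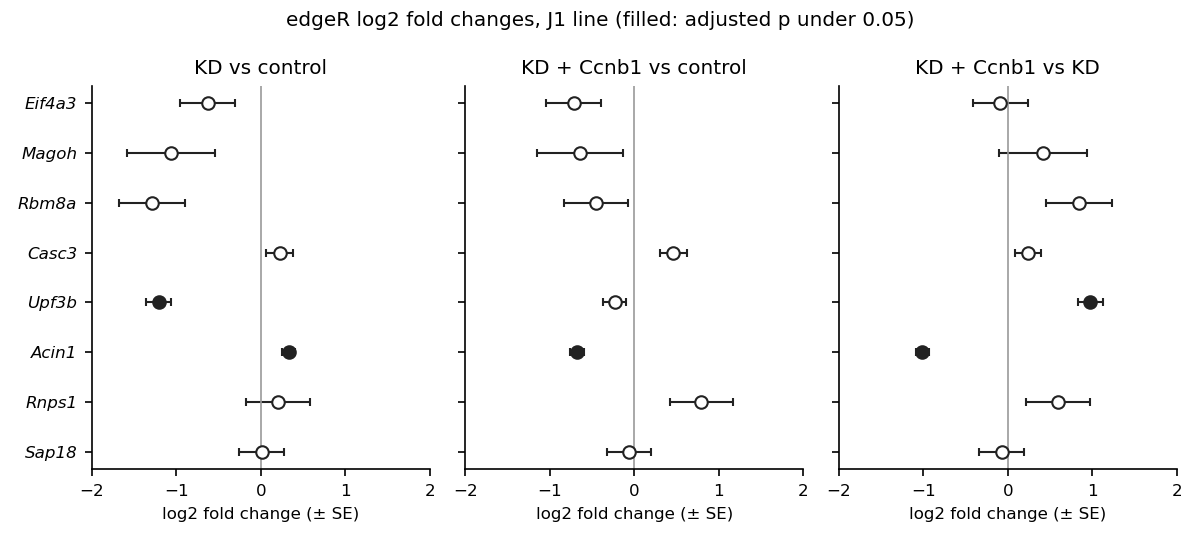
The edgeR log2 fold change of 8 genes with its SE, in the 3 comparisons of J1 groups, with filled points for an adjusted p under 0.05. Filled points are Upf3b and Acin1, at -1.21 and 0.33 on the left, Acin1 at -0.68 in the middle, and Upf3b and Acin1 at 0.98 and -1.01 on the right. Magohb is left out because it had 0 counts in a group.

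Counted over the 9 genes, edgeR called 2 against control in the group labelled knockdown, Acin1 higher and Upf3b lower, where 28.9% of all genes tested were called, 11.0% higher and 17.9% lower. With Ccnb1 against control it called 1, Acin1, which was lower, where 19.8% of all genes were called, 9.35% higher and 10.5% lower. With Ccnb1 against the group labelled knockdown it called 2, Upf3b higher and Acin1 lower, where 38.8% of all genes were called, 22.8% higher and 16.0% lower. The share of the 9 was not above the background in any comparison. The median log2 fold change of the 9 was -0.63, -0.23 and 0.42, and that of all genes -0.08, 0.07 and 0.14. With Magohb set to no change where a group had 0 counts of it, the medians were 0, -0.23 and 0.24. The median of 0 is the value set for Magohb itself, so it does not describe a measured shift of the members. The first and the last comparison share the libraries labelled knockdown, and the first and second share the controls.

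The counts of called members moved with the libraries and the counting. With the near-identical copies summed they were 4, 1 and 4, since the sums of Rbm8a and Sap18 joined in the first and the last comparison, beside 28.9%, 19.8% and 38.9% of all genes. In fits restricted to the libraries of each comparison they were 1, 7 and 2, beside 13.2%, 62.1% and 28.8% of all genes. The 7 in the control and Ccnb1 libraries were Eif4a3, Magoh, Rbm8a, Upf3b and Acin1, all lower with Ccnb1, and Casc3 and Rnps1, both higher. In CPM without TMM scaling, libraries of the groups did not overlap for 6, 7 and 5 of the 9 genes in the 3 comparisons, beside 62.3%, 79.0% and 70.5% of all genes. Without the first library labelled knockdown the counts of called members were 5, 6 and 7, beside 62.8%, 56.3% and 67.7% of all genes, and without the second they were 5, 6 and 6, beside 65.8%, 56.3% and 71.3%.

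Across the 6 J1 libraries the members did not follow Eif4a3 as a group. The Pearson correlation of log2(CPM + 1) with Eif4a3 was 0.77 for Rbm8a, 0.46 for Upf3b, 0.04 for Acin1, -0.07 for Magohb, -0.13 for Magoh, -0.20 for Casc3, -0.39 for Rnps1 and -0.65 for Sap18. The highest value between any 2 members was 0.88, for Rbm8a and Upf3b, and the lowest was -0.86, for Magohb and Acin1. Magohb had 0 counts in both libraries labelled knockdown and 2 to 16 in the other J1 libraries, so its correlations rest on values near the floor. Rbm8a and Sap18 were counted alone here, without the copies that hold most of their family counts in J1. Their correlations are as uncertain as their levels. The points are the same 6 libraries and share their depth, so all these values are a description. Genes compared with Eif4a3 had a mean of 5 CPM or more in J1 and a symbol that is no predicted or clone name. Of these 10476 genes, 163 (1.56%) reached a correlation of 0.9 with Eif4a3, and no member was among them. Magohb was below that mean, so it was not compared. The genes most like it were Slc25a11 (0.996), Cenpv (0.991), Htra1 (0.991), Apol6 (0.990) and P3h4 (0.988). Slc25a11, a mitochondrial carrier, was at 57.3 and 60.4 CPM in the control, 57.5 and 26.1 CPM in the libraries labelled knockdown, and 33.0 and 39.3 CPM with Ccnb1, with the same split between the 2 libraries labelled knockdown as Eif4a3.

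Of 6 genes for the assembly and recycling of the complex, 1 was higher and 0 lower in the group labelled knockdown than in the control, 2 were higher and 1 lower with Ccnb1 than in the control, and 3 were higher and 1 lower with Ccnb1 than in the group labelled knockdown. Of all genes, 11.0%, 9.35% and 22.8% were higher and 17.9%, 10.5% and 16.0% lower in these comparisons. Cwc22, the splicing factor that brings eIF4A3 to the spliceosome, was higher with Ccnb1 by 0.67 ± 0.10 on the log2 scale against control (edgeR adjusted p = 0.00891) and by 0.43 ± 0.10 against the group labelled knockdown (adjusted p = 0.0208). Pym1, which takes the complex apart at the ribosome, fell with Ccnb1 by 0.66 ± 0.09 against control (adjusted p = 0.00693) and by 0.41 ± 0.09 against the group labelled knockdown (adjusted p = 0.0186). Aqr, a helicase of the spliceosome, was higher with Ccnb1 by 1.10 ± 0.27 against control (adjusted p = 0.0429) and by 1.10 ± 0.28 against the group labelled knockdown (adjusted p = 0.0267). Ipo13, which imports the MAGOH and Y14 dimer, was higher in the group labelled knockdown by 0.62 ± 0.17 (adjusted p = 0.0456). None of these 7 calls held when the control or Ccnb1 libraries were left out 1 at a time, and 2 of them turned with an offset for GC content and length. Against the group labelled knockdown, Cwc22 was then at -0.35 (not centred) and Pym1 at 0.02 (centred). The further gene called, Nom1, was higher with Ccnb1 than in the group labelled knockdown and is named after its value was seen.

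Of 18 genes for peripheral and outer partners, 16 were matched and tested. Against control, 2 were higher and 4 lower in the group labelled knockdown, and 3 higher and 4 lower with Ccnb1. With Ccnb1 against the group labelled knockdown, 7 were higher and 6 lower. Genes called in either direction were 28.9%, 19.8% and 38.8% of all tested. Srsf1, a splicing factor found with the complex, fell in the group labelled knockdown by 1.24 ± 0.07 on the log2 scale (edgeR adjusted p = 0.000533) and was higher with Ccnb1 than there by 1.18 ± 0.07 (adjusted p = 0.000312). Ncbp2, the small subunit of the cap-binding complex, fell in the group labelled knockdown by 1.42 ± 0.11 (adjusted p = 0.000979). Srsf3, a further SR protein, fell by 0.49 ± 0.07 there (adjusted p = 0.00578) and by 0.59 ± 0.07 with Ccnb1 (adjusted p = 0.00421). Nxf1, the mRNA export receptor, fell with Ccnb1 against control by 0.81 ± 0.13 (adjusted p = 0.0112), and Poldip3 was higher with Ccnb1 than in the group labelled knockdown by 0.83 ± 0.08 (adjusted p = 0.00124). The differences of Srsf3 against control were not called without either control library, and that of Nxf1 was not called without any 1 control or Ccnb1 library. The rise of Srsf1 with Ccnb1 was 0.06 (adjusted p = 0.712) with an offset for GC content and length that was not centred. Against control, the other genes called were Upf3a and Ncbp1 (higher) and Poldip3 (lower) in the group labelled knockdown, and Pnn, Poldip3 and Smg6 (higher) and Upf3a and Ddx39b (lower) with Ccnb1, named in part after their values were seen.

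The 2 other eIF4A genes encode the helicases of translation initiation. Eif4a1 fell with Ccnb1 by 1.06 ± 0.08 on the log2 scale against control (edgeR adjusted p = 0.00121) and by 0.92 ± 0.08 against the group labelled knockdown (adjusted p = 0.000811). Eif4a2 fell in the group labelled knockdown by 0.37 ± 0.06 (adjusted p = 0.00873), was higher with Ccnb1 than in the control by 0.33 ± 0.06 (adjusted p = 0.0153) and was higher with Ccnb1 than in the group labelled knockdown by 0.70 ± 0.06 (adjusted p = 0.000811). Its 3 differences were 0.01, -0.09 and -0.10 with an offset for GC content and length that was not centred. The first was not called without either control library, and the second without any 1 control or Ccnb1 library. In the main fit Eif4a1 was thus lower with Ccnb1 than in the control and Eif4a2 higher, the latter a call that changed with these alternatives. Eif4a3 was at -0.72 ± 0.32 there and was not called. With only those 2 groups in the fit it was called, at -0.77, where 62.1% of all genes passed.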

How the data were processed

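Poly-A RNA of 8 libraries was sequenced, single-end at 100 bp or paired-end at 150 bp per the labels, which do not assign either type to a library. The deposited files give raw counts of reads by Ensembl gene ID, 1 file per library, and end in 5 summary rows, which were not used in library sizes or tests. They held 15.7% to 45.2% unaligned reads and 20.7% to 33.7% reads of low alignment quality in J1 and none in CCE, and 9.71% and 10.0% reads that were not unique in CCE and none in J1. The submitters' processing notes name HTSeq 0.11.2 and Bowtie2 2.3.4.3, beside SAMtools 1.9, edgeR 3.26.8 and mm9, with no roles or strand setting. Symbols matched 32620 of 37310 IDs. Sequences came from GENCODE M21, of another build, so no coordinates are printed.

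Groups were compared with edgeR 4.0.16 in R 4.3.3 (quasi-likelihood F test), two-sided, on the deposited counts of the 6 J1 libraries in 1 fit with TMM scaling, filterByExpr and no block, adjusted by Benjamini-Hochberg over 14462 genes and called at 0.05. The SE of a log2 fold change is its size over the square root of F. Levels are CPM, counts scaled to all gene counts, not TMM-scaled, with exact 95% Poisson intervals, and shares have exact 95% binomial intervals. A count of 0 allows 3 counts, which were 0.360 to 0.834 CPM in J1 and 0.117 and 0.125 CPM in CCE. Reads carry no molecular identifiers and may repeat a molecule, so intervals and floors cover counting error only. Copies were searched with BLAST 2.17.0 (300 aligned bases or more, 90% identity). The method was tested on simulated data with the same spread in all groups. The J1 groups differed in spread, and the simulation does not cover that difference. All 9 members are named, and of each further list the called genes among the 3 with the smallest adjusted p in a comparison, and Upf3a, Pnn and the copies as alternatives to members. Members, lists and comparisons were chosen with earlier results of these data known. Alternatives were other scaling (DESeq2 1.42.0), filters, tests and sets of libraries, a replicate block, an offset for GC content and transcript length, summed copies, and counts divided by the spread between libraries. Centring of the offset was chosen after seeing the data.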

Additional observations from a re-analysis of the deposited data

How the results depend on the processing

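With the replicate block, called members stayed at 2, 1 and 2, and Eif4a3 at -0.66, -0.72 and -0.05 (log2, edgeR), for the group labelled knockdown and the Ccnb1 group against control and Ccnb1 against knockdown, the order used throughout. The labels do not say that same-numbered libraries share a batch, and whether they do was not tested. The difference between replicates 1 and 2 correlated between groups at -0.03 to 0.03, and the block changed no call of a member. Genes called fell from 4184 to 2631 in the first comparison (2865 to 1968 and 5616 to 4178 in the others). With only the 2 groups compared, genes called were 1760 in the first and 8658 in the second comparison, members called 1 and 7, and Eif4a3 against control with Ccnb1 -0.77. With counts divided by the spread, genes called were 3334 in the first and 8386 in the second, of 12627 tested. Members called were 4 in the first and 7 in the second, of 8 tested, and Eif4a3 in the second was -0.71. With DESeq2's Wald test, genes called were 5830, 4656 and 7059 of 14462 tested in the 3 comparisons, and members called 3, 2 and 4. Copies summed gave 4 members in the first and 4 in the last. The centred GC and length offset gave 1 member in the first, beside 4102 of 14462 genes. It turned Eif4a3 in the last to 0.26, Magoh to -0.059 and Pym1 to 0.024. The offset not centred, which was run first, moved the median of all genes to 0.18, -0.11 and -0.34, and the share of calls that were higher from 38.0%, 47.2% and 58.7% to 56.7%, 24.4% and 35.0%. It turned Casc3 (-0.018), Magoh (-0.49), Cwc22 (-0.35), Pnn (-0.37), Rbm8a2 (-0.19) and Eif4a2 (-0.10) in the last, Eif4a2 (0.015) and Sap18b (0.17) in the first, and Eif4a2 (-0.090) in the second. Leaving out 1 library at a time gave 701 to 10225, 254 to 8806 and 1674 to 11078 genes called, 0 to 5, 0 to 6 and 1 to 7 members called, and Eif4a3 at -1.25 to -0.25, -0.79 to -0.59 and -0.44 to 0.55. The lowest counts of the first 2 came without a control library, and the highest of the first and the last without the second library labelled knockdown. Beside the 0 members edgeR called without a control library (first and second comparison) or a Ccnb1 library (second), 1 or 2 members had an unadjusted p under 0.05, and DESeq2 on all 6 libraries called 3 and 2. The small differences of uncalled members changed sign in such fits: in the first, Casc3 lay between -0.060 and 0.41 and Rnps1 between -0.22 and 0.69, in the last Magoh lay between -0.17 and 1.60, and Sap18 lay between -0.24 and 0.19 in the first, -0.28 and 0.16 in the second and -0.26 and 0.21 in the last. Sap18 was also -0.024 in the first with no filter, and -0.39, 0.17 and 0.56 with copies summed. Of 376 values of the other 8 members under alternatives, 302 kept direction and side of the threshold, 14 lost and 41 gained a call, and 19 changed sign. Upf3b in the first and the last, and Acin1 in all 3, kept their direction under every alternative. TMM scaling moved 5 of 27 group levels by over 1 SD, by factors of 0.940 to 1.06. The cause of these changes was not tested. Depth limits Magohb, and the spread between the libraries labelled knockdown limits every comparison with them.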
